A study of Rattus norvegicus with 6 samples.

Results

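The circular RNAs described here are exonic circRNAs of the rat pineal gland whose host gene has no other circRNA in the tables. They were chosen from the union, by position, of 6 per-library tables (the main tables). An entry was kept if it was annotated as exonic, carried exactly 1 host gene ID, and if that ID had exactly 1 circRNA of any annotation class in the union. This gave 631 of 2228 circRNAs (28.3%), or 47.2% of the 1336 exonic ones. The other exonic circRNAs used for comparison, 705 in number, belong to hosts with 2 or more circRNAs.

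The study set glands taken by day against glands taken by night. Each of 6 rats, all 8 weeks old, gave 1 pineal library from total RNA. The rats carry no allele or agent in the labels. Which rats were killed when is stated in contradictory ways: the titles and time tags put C01, C02 and C03 at 4:00 and C04, C05 and C06 at 16:00, while the protocol text puts C01, C02 and C03 in sunlight between 16:00 and 17:00 and the other 3 in darkness, under red light, between 4:00 and 5:00. The groups are therefore called rats C01 to C03 and rats C04 to C06 (n = 3 each), every difference is C01 to C03 minus C04 to C06, and none is assigned to day or night. The labels give neither strain nor sex.

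A circRNA forms when the splicing machinery joins the end of an exon back to the start of the same or an earlier exon, so that the RNA closes into a ring. The ring has no free end for exonucleases to attack and no poly(A) tail, and the same host exons also enter the ordinary linear transcript. Reads across the back-splice junction are the evidence for the ring. Reads that cross the same ends without back-splicing, called linear reads here, are taken as the measure of the linear RNA, and their source was not tested. The pineal gland secretes melatonin at night and is known for strong daily rhythms in its transcripts.

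The main tables held 15506 to 22265 back-splice reads per library, and those depths bound what can be seen at any single junction. They list a circRNA in a library only with at least 2 back-splice reads and a circular share of at least 9.09%, where the share is 2 times the back-splice reads over that number plus the linear reads. An unlisted circRNA is thus not a measured 0, its linear reads are not given, and no fold is printed against a group that lacks it. Candidate lists from another circRNA caller (the second caller), which have no such minimum share and start at 2 reads, gave another count from the same libraries. The hosts appear in the files as Ensembl gene IDs only, none of which could be paired with a symbol, so members are named by position.

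Most members were listed in few libraries. Of the 631, 306 (48.5%) were listed in 1 library and 56 (8.87%) in all 6, with 108, 77, 42 and 42 listed in 2, 3, 4 and 5 libraries. The 56 nevertheless carried 49.3% of the 23364 back-splice reads of the set, and the 306 carried 10.1%, with a median of 5 reads and 43 of them at the minimum of 2 reads. Among the other exonic circRNAs 15.7% were listed in all 6 libraries and 43.7% in 1. Together the members held 20.1% of all back-splice reads.

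**Figure D1:**
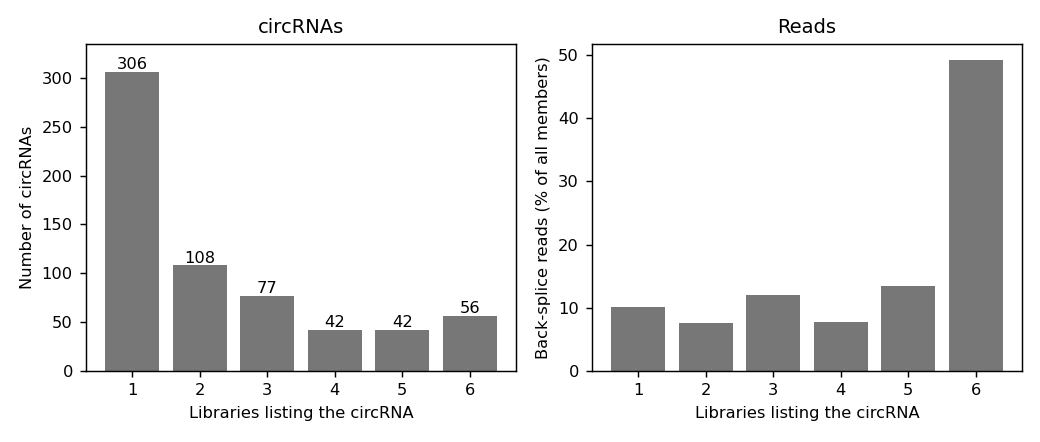
Left, number of member circRNAs by the number of libraries that listed each; right, the percent of all member back-splice reads that those circRNAs carried. The bar for 1 library holds 306 circRNAs and 10.1% of the reads, the bar for 6 libraries 56 circRNAs and 49.3% of the reads.

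The members lay on 21 chromosomes, from 55 on chromosome 1 to 12 on chromosome 19, with 19 on X and none on Y, and 310 were on the plus and 321 on the minus strand. The genomic distance between the joined ends (the span) ran from 239 to 177920 bases, with a median of 7739 and quartiles of 2760 and 17643. Spans under 1000 bases were found in 62 members (9.83%) and over 50000 bases in 22. The shortest were chr9:99266783-99267021 (239 bases), chr10:63332239-63332486 (248 bases) and chr14:36341464-36341713 (250 bases). The first was listed in all 6 libraries, with 11, 21, 15, 17, 14 and 6 reads from C01 to C06, and the second in 5. The longest, chr4:72929918-73107837, chrX:56083435-56257934 and chr6:72996388-73119830, rested on 5 reads in C06, 2 reads in C04 and 4 reads in C05. The second caller had no reads at the ends of these 3 in any library.

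How much exon each ring contains is not stated. The authors' TPM values divide reads by a length, and that divisor can be recovered. Whether it is the exon content of the ring was not tested. The length could be computed for 468 members, and in all 468 it was a whole number of bases (tolerance 0.01). The length ran from 132 to 5787 bases with a median of 462.5, and 386 members (82.5%) lay between 200 and 1000 bases. Its median was 8.06% of the span. In 32 members (6.84%) the length equalled the span exactly, which does not show whether an intron lies between the ends. These spans ran from 239 to 5787 bases, with a median of 673, and most reads among them belonged to chr15:23792824-23793342 (519 bases, 403 reads), chr3:94396940-94398038 (1099 bases, 343 reads) and chr5:76925720-76926914 (1195 bases, 205 reads). In the other 436, a median length of 456 bases came from spans with a median of 7533 bases, and in 2 of them the length exceeded the span.

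**Figure D2:**
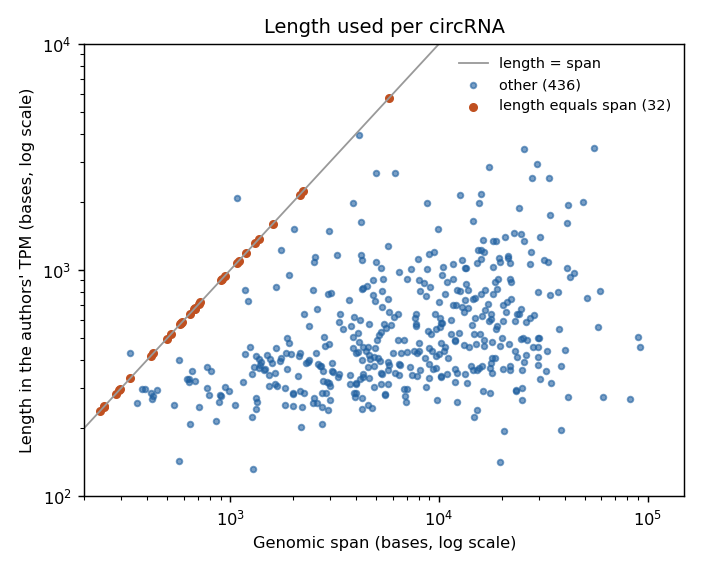
Genomic span (x axis, bases, log scale) against the length used in the authors' TPM (y axis, bases, log scale) for the 468 member circRNAs that have one, 1 point per circRNA. The 32 orange points lie on the line of equality, and the other 436 have a median length of 456 bases over a median span of 7533 bases.

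Members had shorter spans than exonic circRNAs that share a host. Within each library the median span of the listed members was compared with that of the other listed exonic circRNAs, which gave 7181 ± 699 bases against 17223 ± 1136 (SD, n = 6). It was lower for members in 6 of 6 libraries (exact two-sided sign permutation p = 0.03125, the smallest that 6 libraries allow). The adjusted p over 4 measures was 0.0417, but that family holds 2 measures given below with no test, so no pass is claimed. A span is fixed and many circRNAs were listed in several libraries, so the 6 libraries are not independent replicates of it. Over the whole lists the median span was 7739 bases for members and 16946 for the other exonic circRNAs. Against hosts with exactly 2 circRNAs the difference was -5505 bases, also lower in 6 of 6 libraries (exact permutation p = 0.03125). Its adjusted p over the same 4 measures was 0.083 and did not pass, because other measures of that family had larger p-values. The median back-splice read number was 7.92 ± 0.801 against 9.67 ± 0.816, and the median circular share was 14.7% ± 0.667 against 16.5% ± 0.757 (SD, n = 6). These last 2 are given as descriptions with no test, because the rule counts the circRNAs of a host that reached the minimum reads and share, so neither measure is independent of membership. The share of listed circRNAs whose ends the second caller also found, 73.5% ± 5.74 against 71.1% ± 6.12, was higher for members in 4 libraries and did not pass (exact permutation p = 0.281).

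The most abundant member was chr8:130762665-130768360, with 186, 174, 159, 252, 243 and 214 back-splice reads from C01 to C06. Every value in C04 to C06 was above every value in C01 to C03, but in normalised CPM, the reads scaled to a common library total with TMM factors, the means were 10452 ± 986 and 13009 ± 723 (SD, n = 3 each) and the difference did not pass (log2 difference -0.32, SE 0.09, edgeR adjusted p 0.22). Next came chr18:29633808-29634585 with 160, 110, 130, 154, 137 and 171 reads and chr14:87328008-87357732 with 148, 88, 119, 92, 102 and 95. The groups overlapped in the former. At chr14:87328008-87357732 they overlapped in reads but not in normalised CPM (7049 ± 1134 against 5310 ± 276, SD, n = 3 each), and the difference did not pass (log2 difference 0.41, SE 0.14, edgeR adjusted p 0.25).

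Below these, chr2:35086861-35104742 and chr7:138002505-138021168, had 73 to 116 and 69 to 132 reads per library. Among the last 3 by abundance, chr17:54298407-54301447 had 53 to 107 reads, chr15:23792824-23793342 56 to 77 and chr17:76245627-76265943 58 to 72. The circular share of the last was 37.4% ± 0.919 in C01 to C03 and, in the other group, 37.2% ± 1.45 (3 rats each, SD). The other members of the 10, chr10:71546978-71557193 and chr1:244630341-244664389, were each unlisted in at least 1 library and are described with their second caller reads later. In each library its own 10 leading members took 29.3% ± 1.97 (SD, n = 6) of the member reads.

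**Figure D3:**
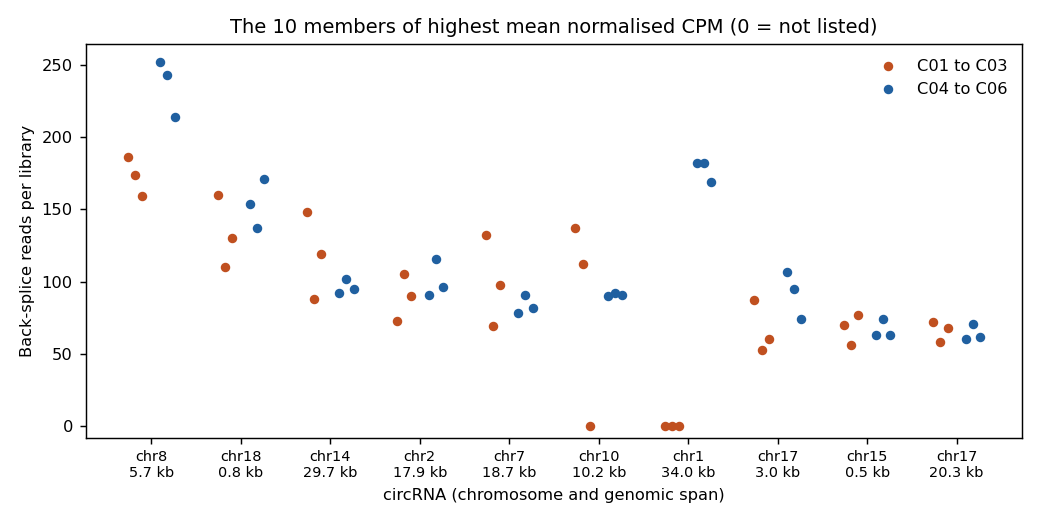
Back-splice reads per library (y axis) for the 10 members of highest mean normalised CPM, ordered from left to right by that mean, with 1 point per rat, orange for C01 to C03 and blue for C04 to C06. A point at 0 means not listed, which applies to all 3 orange points of the chr1 circRNA and to 1 of the chr10 circRNA.

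The main tables listed fewer members in C01 to C03, as they did circRNAs of all kinds. The numbers from C01 to C06 were 250, 208, 218, 262, 265 and 264, a mean of 225 ± 21.9 against 264 ± 1.53 (SD over 3 rats). The exact permutation p, two-sided, was 0.1, which is the lowest 3 against 3 can reach, and 0.3 adjusted over 3 measures. The groups did not overlap, and the expected numbers at a common depth of 15506 reads, 220 ± 15.4 against 250 ± 2.64, had the same order (exact permutation p = 0.1). All circRNAs listed numbered 874, 795 and 825 against 948, 986 and 946, and members made up 27.1% ± 1.34 against 27.5% ± 0.534 of them (SD, n = 3 each; exact permutation p = 0.7). The second caller's own lists held 292 ± 0.577 and 285 ± 30.9 of the members (exact permutation p = 0.7). Members took 19.5% ± 1.18 of the back-splice reads in C01 to C03 against 20.5% ± 0.126 (exact permutation p = 0.4). TPM divides reads by a length and covers only 1413 circRNAs, 468 of them members, so it is another measure on another set. By TPM the order was the reverse, 36.0% ± 1.27 against 33.6% ± 0.839 (exact permutation p = 0.1). The median circular share of members was 14.3% ± 0.768 against 15.1% ± 0.351 (exact permutation p = 0.3), and over the members listed in all 6 libraries it was 21.74% ± 0.740 against 21.71% ± 0.717 (exact permutation p = 0.8).

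No member listed in all 6 libraries passed the test of back-splice reads between the groups. In a separate edgeR fit of only the circRNAs listed in all 6, 7 of 273 passed. Passes were so few that 0 of 56 members does not set the members apart. The main test, in which an unlisted entry counts as 0, called 3 of 217 members (1.38%), where 1.55% of all 772 circRNAs tested did (edgeR, quasi-likelihood, p-values adjusted by Benjamini-Hochberg over the 772, threshold 0.05). The other 414 members had 2 reads or more in fewer than 3 libraries of the main tables and were not tested. The median log2 difference was -0.10 over the members and -0.10 over all tested. An unadjusted edgeR p under 0.05 was found for 21 members. No like count over all 772 is given, so members are not compared with the rest by it. All 3 called members were listed in 1 group alone and entered the test only through that group, so their calls describe the listing and are not a measured difference in back-splice reads. The 56 members listed in every library, none of which was called, had log2 differences from -0.85 to 1.25 and a median of 0.00. Among these 56 the largest was at chr18:69943105-69944476, with 22, 9, 16, 7, 8 and 6 reads, no overlap between the groups, and an edgeR adjusted p of 0.48 (log2 difference 1.25, SE 0.51).

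The first called member, chr1:244630341-244664389 of host ENSRNOG00000011931, was listed with 182, 182 and 169 reads in C04 to C06 and not at all in C01 to C03. The second caller had reads at the same ends in all 6 libraries, 143, 130 and 124 against 98, 162 and 124. By these counts the groups overlapped, with a log2 difference of -0.03 that did not pass. Where it was listed, its circular share was 15.6% ± 0.374 (SD, n = 3) beside 1811 to 2029 linear reads per library.

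The second, chr10:110680099-110690679 of host ENSRNOG00000036658, had 46, 60 and 40 reads in C04 to C06 alone, at a circular share of 11.2% ± 0.762 (SD, n = 3). The second caller had no reads at these ends in any library, and it listed 4 other junctions sharing 1 of the ends, with 42 reads in all. Its share lay close to the listing minimum in all 3 libraries, and the call was lost without C04, C05 or C06.

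The third, chr17:77176705-77178100 of host ENSRNOG00000017941, was the only called member listed in C01 to C03 alone, with 28, 26 and 19 reads at a circular share of 11.5% ± 1.81 (SD, n = 3). The second caller gave it 21, 26 and 20 reads in the group that lists it against 19, 50 and 33 in the other, a log2 difference of -0.64, of the opposite sign. The call was lost whichever of the 6 rats was left out.

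Listing in all 3 libraries of 1 group and none of the other was found for 4 members in C01 to C03, where 0.583% of all circRNAs had this pattern, and for 13 in C04 to C06, where 1.57% did. Beside the called chr17 circRNA, the 4 included chr1:52414237-52444705 with 16, 13 and 21 reads, chr14:2171704-2172362 with 10, 5 and 9, and chr2:144876416-144917472 with 7, 19 and 3. In C04 to C06 alone, after the 2 called ones, chr9:65976760-65980632 had 20, 15 and 17 reads, chr3:10659684-10663946 had 14, 20 and 13, chr15:48231960-48241781 had 14, 23 and 6, and chr12:29985632-29988732 had 9, 10 and 11. None of these 7 was called. The remaining 7 had 2 to 11 reads per library. They were chr10:51724607-51739115, chr14:36341464-36341713, chr1:200648164-200672411, chr7:35041630-35048464, chr14:10477024-10484284, chr4:33929479-33934304 and chr9:10742897-10743276.

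The second caller had reads in the lacking group for 12 of these 17 members, in all 3 lacking libraries for 7 of them. It had none in any of the 6 libraries for 3, namely chr10:110680099-110690679, chr14:10477024-10484284 and chr7:35041630-35048464. Of the 51 pairs of a member and a lacking library, 29 had second caller reads. The highest listed circular share was under 15% for 6 of the 17. The member farthest from the listing minimum was chr10:51724607-51739115, with 4, 6 and 11 back-splice reads beside 6, 2 and 2 linear reads in C04 to C06 and a share of 78.2% ± 18.5 (SD, n = 3). At its ends the second caller had 2 reads, in C04.

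**Figure D4:**
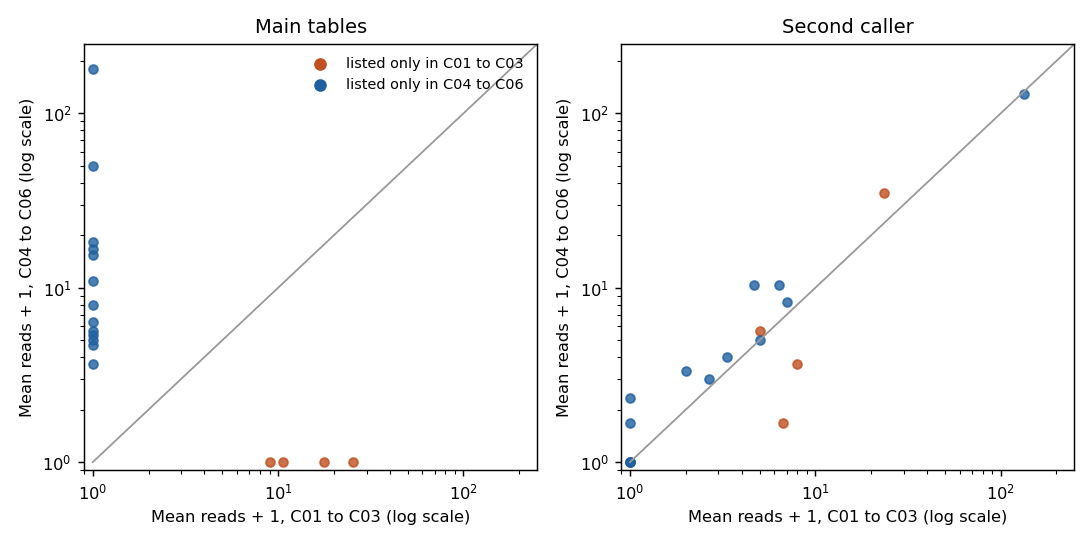
Mean reads plus 1 in C01 to C03 (x axis, log scale) against C04 to C06 (y axis, log scale) for the 17 members listed in every library of 1 group and in none of the other, by the main tables (left) and the second caller (right), 1 point per circRNA; the grey line marks equal means. On the left all 17 points lie on an axis by selection, and on the right the second caller had reads in the lacking group for 12 of the 17.

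Unlisted entries also occurred in abundant members within a group. Of 48 members with at least 30 back-splice reads in some library, 22 were unlisted in another (a pattern chosen after the values were seen). For 17 of the 22 the second caller had reads in all 6 libraries, and for 5 in none. The lowest listed share was under 15% in 17 of the 22. That level lies close to the median circular share of listed members, 14.7% ± 0.667 (SD, n = 6 libraries), so it does not set these members apart. Why listings were missing was not tested. At chr17:5555491-5571375, for example, 112 and 89 reads in C05 and C06, with shares of 9.90% ± 0.974 (SD, n = 2) and 1891 and 1754 linear reads, stood beside no listing in the other 4 libraries, while the second caller counted 68, 72, 78, 57, 115 and 68 reads. Among the 161 members listed in 3 to 5 libraries the lowest share was under 15% in 123 (76.4%), against 32 of the 56 listed in all 6 (57.1%).

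Far from the minimum share was chr10:71546978-71557193, which had the highest circular share of the 10 most abundant members. It had 137, 112, 90, 92 and 91 back-splice reads in C01, C02, C04, C05 and C06, only 9 to 17 linear reads, and a circular share of 94.6% ± 1.71 (SD, n = 5). It was unlisted in C03, where the second caller counted 88 reads, against 40 to 77 in the other 5 libraries.

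Among the 306 members that the main tables listed in 1 library, the highest read number was 374. Next was chr17:16124900-16129065 with 45 reads in C03, at whose ends the second caller had reads in all 6 libraries (21, 22, 26, 6, 22 and 7). The circRNA with 374, chr5:90818736-90880617, had them in C01 beside 644 linear reads, was unlisted in the other 5 libraries, and had no second caller reads. The read evidence recorded in the main table, which counts distinct alignment patterns by the side of the junction at which they are clipped, was 95 patterns on the left, none on the right and 4 on both. Only 5 of 327 members with at least 10 reads had no pattern on 1 of the sides, and 2 of these 5 had second caller reads. From the same start the second caller joined another end, chr5:90818736-90827570, with 370, 448, 494, 151, 320 and 225 reads from C01 to C06. The main tables list that end in an intergenic circRNA, chr5:90817794-90827570, with 53, 26, 30, 45, 46 and 40 reads.

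Linear reads at the members' ends passed the test at 18 of the 56 members listed in all 6 libraries. Back-splice reads passed at none of the 56, and at 7 of 273 circRNAs in the fit of those listed in all 6. No mean circular share of the 56 was above 50%, so linear reads were generally the more numerous. The 2 counts of passes therefore do not rest on equal read numbers. In C01 to C03 linear reads rose at 10 (17.9%, where 18.7% of the 273 circRNAs tested rose) and fell at 8 (14.3%, where 13.2% fell; edgeR with Benjamini-Hochberg adjustment over the 273). At chr14:87328008-87357732 linear reads were 1002, 679 and 822 in C01 to C03 against 144, 189 and 182, a log2 difference of 2.27 (SE 0.09). At chr18:29633808-29634585 they were 1264, 946 and 979 against 2474, 2534 and 2226 (log2 difference -1.18, SE 0.04), and at chr8:130762665-130768360 they were 602, 472 and 439 against 910, 1003 and 931 (-0.91, SE 0.07). The groups did not overlap in linear reads as deposited at any of these 3.

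The other rises were at chr6:136430192-136436620 (0.83, SE 0.21), chr1:15488392-15494771 (0.83, SE 0.18), chr14:7186515-7190518 (0.67, SE 0.17), chr20:27278618-27279990 (0.61, SE 0.19), chr8:79528539-79543050 (0.59, SE 0.11), chr6:9405093-9434931 (0.51, SE 0.11), chr7:138002505-138021168 (0.48, SE 0.05), chr20:50659751-50687868 (0.36, SE 0.12) and chr15:23792824-23793342 (0.30, SE 0.11), each a log2 difference in linear reads. The other falls were at chr9:1875552-1880538 (-0.99, SE 0.11), chr19:30869716-30870010 (-0.62, SE 0.24), chr6:54522274-54530157 (-0.58, SE 0.09), chr11:84972224-84979236 (-0.55, SE 0.11), chr5:76925720-76926914 (-0.46, SE 0.18) and chr2:139502624-139520450 (-0.30, SE 0.11). The calls at chr15:23792824-23793342, chr19:30869716-30870010, chr20:50659751-50687868 and chr5:76925720-76926914 were lost with DESeq2 (adjusted p 0.11, 0.099, 0.056 and 0.11), and these 4 and chr2:139502624-139520450 were lost without 1 or more of the rats (edgeR adjusted p up to 0.32).

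Back-splice reads at these 18 members had log2 differences from -0.85 to 0.64, none past the threshold, and the same sign as the linear difference at 10. The linear difference was the larger in size at 14, which choosing the 18 by that difference favours. The log2 ratio behind the circular share had the opposite sign to linear reads at 16 of the 18. Linear reads are the denominator of that ratio and chose the 18, so this sign is largely fixed by construction. Over all 56 the median log2 difference in linear reads was -0.07, against 0.00 over the 273. Both kinds of read were scaled within the same libraries, and each member had to hold a share of at least 9.09% in all 6 to be tested.

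**Figure D5:**
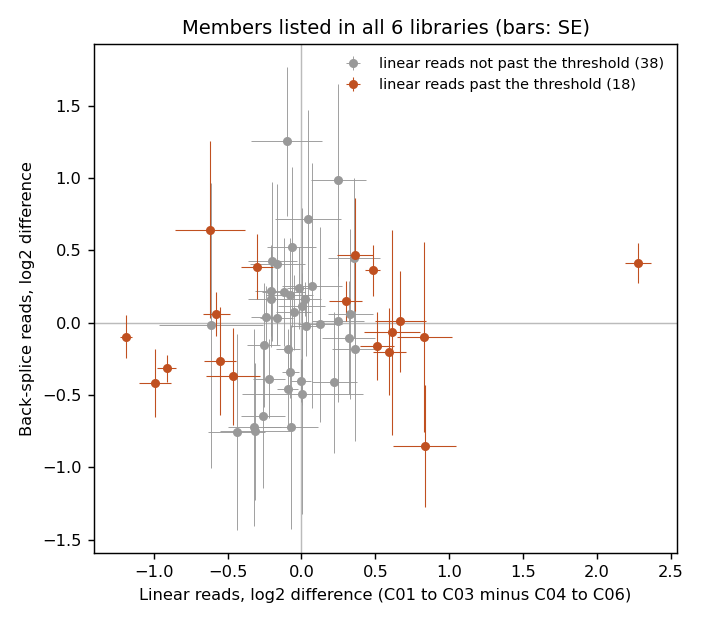
Log2 difference (C01 to C03 minus C04 to C06) in linear reads (x axis) and back-splice reads (y axis) for the 56 members listed in all 6 libraries, 1 point per circRNA with bars of 1 SE. The 18 orange points passed for linear reads, from -1.18 to 2.27, and none of the 56 passed for back-splice reads.

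The balance of back-splice to linear reads passed its own test at 2 of the 56 members (3.57%, where 2.20% of 273 passed; limma on the log2 ratio of both kinds of read, Benjamini-Hochberg adjusted). Both were lower in C01 to C03. At chr14:87328008-87357732 the circular share was 21.9% ± 1.19 against 53.0% ± 2.69 (SD, n = 3 each), with a log2 ratio difference of -2.00 (SE 0.22, limma adjusted p 0.0021). At chr6:136430192-136436620, with 8, 12, 12, 22, 18 and 24 back-splice reads beside 85, 59, 74, 43, 40 and 39 linear reads, the share was 23.1% ± 6.65 against 51.0% ± 3.92 (log2 ratio difference -1.80, SE 0.32, limma adjusted p 0.031). This second call was lost without C03, C04, C05 or C06 (limma adjusted p 0.097, 0.11, 0.054 and 0.061).

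In the other direction the smallest p belonged to chr18:29633808-29634585, at 20.0% ± 1.07 against 11.4% ± 1.80 (limma adjusted p 0.052), and to chr18:69943105-69944476, at 42.3% ± 2.77 against 24.9% ± 4.66 (limma adjusted p 0.064; SD, n = 3 each). Neither passed. With at least 5 reads in all 6 libraries both passed (limma adjusted p 0.040 each). That made 2 lower and 2 higher members of 46 tested, where 10 of all 234 circRNAs passed. With 1 in place of 0.5 added to the reads chr18:29633808-29634585 passed (limma adjusted p 0.047). The median log2 ratio difference was -0.12 over the 56 and -0.20 over the 273, with 31 of 56 and 173 of 273 below 0.

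As a mean over the 6 libraries, the circular share of these 56 ran from 12.4% to 49.0% with a median of 21.6%. The highest were chr20:45189472-45193661 at 49.0% ± 20.0, chr5:76925720-76926914 at 46.7% ± 5.48, chr11:57442466-57454443 at 43.1% ± 9.84, chr15:23792824-23793342 at 41.0% ± 4.43 and chr19:30869716-30870010 at 37.6% ± 12.9 (SD, n = 6). The lowest were chr7:120608346-120610489 at 12.4% ± 3.24, chr11:84972224-84979236 at 13.0% ± 1.83, chr9:10347615-10349027 at 13.2% ± 2.77, chr7:47865531-47889037 at 14.0% ± 3.18 and chr15:61664226-61683055 at 14.1% ± 4.12. Neighbours within each of these sets of 5 overlapped in their SDs. The sets themselves did not, but they were chosen as the extremes of this same share, so their distance is not a result. Of the 5 most circular, 3 had a length in the TPM equal to the span. The leading value rested on only 2 to 9 back-splice reads per library.

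The ends of the members were joined elsewhere too. The second caller found the exact junction of 493 members (78.1%) in at least 1 library, on the same strand in all 493, and of 128 members in all 6. At the ends of 242 members (38.4%) it also listed same-strand junctions that used exactly 1 of the ends, 447 in total. In 61 members these had more second caller reads than the member's own junction. The second caller listed 3 or more such junctions for 42 members, and for 30 of the 242 it had no reads at the member's own junction.

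The most were at chr17:5555491-5571375 and chr1:244630341-244664389, with 11 each (593 and 574 reads), and chr17:9912158-9929565, with 9 (114 reads). Of the 11 at chr17:5555491-5571375, 9 kept the end at 5571375 and varied the start from 5511386 to 5563519. At chr1:244630341-244664389 the leading alternative, chr1:244630341-244728217, had 30, 30, 26, 27, 45 and 58 reads from C01 to C06. At chr17:9912158-9929565, which the main tables list in C03, C05 and C06 with 41, 57 and 38 reads, the second caller had 23, 17, 39, 19, 52 and 34 reads at the exact ends. An overlap with another circRNA of the main tables was found for 14 members. The other circRNA was intergenic and on the same strand in all 14, and no member overlapped another member.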

How the data were processed

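Per the file headers, the authors deposited for each library a table with counts of reads on each back-splice junction, of non-junction (linear) reads and the circular fraction, in the column format of CIRI, and a list with counts of reads per junction in that of find_circ. They also deposited circRNA values in TPM. Caller versions were not given in the sources used here, nor were settings. Although the IDs are rat Ensembl IDs, mm9, a mouse build, is named beside DESeq in the submitters' processing notes. The build is uncertain, so positions are those of the files, counted from 1, and no sequence is shown. None of 1056 host IDs matched a symbol.

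The members, tests and lists were chosen with earlier results of these data known. Back-splice reads (772 circRNAs that had 2 reads or more in 3 libraries or more) and linear reads (273 circRNAs listed in all 6) were compared between groups in R 4.3.3 by edgeR 4.0.16 (quasi-likelihood, TMM). The ratio of both kinds of read, each plus 0.5, was tested with limma 3.58.1 (trend). Adjusted p-values (Benjamini-Hochberg, threshold 0.05) cover all circRNAs tested. Values per library were compared with exact permutation tests, two-sided. Alternatives were DESeq2 1.42.0, limma-voom, RLE and library size scaling, other read minimums, the second caller's counts, TPM with limma (pseudocount 0.760 or 1) and leaving out each rat. All 15 pairs of libraries differed beyond sampling noise (chi-square per degree of freedom at least 1.39, largest p 1.9e-05), so none was taken as a duplicate; all reads came from 1 flow cell lane.

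TPM length was recovered as the floor of the average read number of both callers over TPM, scaled on intergenic circRNAs. No binomial interval is given for a circular share, since each back-splice read enters it 2 times. Members were named if they passed a test, were among the 10 most abundant, were listed in all of 1 group and none of the other, had the smallest p, the 5 highest or lowest shares, the 3 longest or shortest spans or the 3 largest numbers of alternative junctions. The chr5 and other members given for missing listings were chosen after their values were seen.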

Additional observations from a re-analysis of the deposited data

Results flagged for a closer look

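The second caller had reads at junctions that the main tables lack, and the comparisons between groups do not use them. At junctions that share 1 end with chr17:5555491-5571375, 11 in number and none of them in the main tables, the second caller had 593 reads over the 6 libraries. At the 11 junctions sharing 1 end with chr1:244630341-244664389 it had 574 reads, and at the 9 sharing 1 end with chr17:9912158-9929565 it had 114, again with none of the junctions in the main tables. At chr5:90818736-90827570, which is not in the main tables and shares its start with the member listed with 374 reads in C01, it had 2008 reads, present in all 6 libraries. These junctions were picked for their number or their reads, and the second caller lists none under 2 reads, so the totals are descriptions only. Absence from the main tables is not a measured 0. There are no libraries without circRNA against which to set these totals, and what produces them was not tested.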

How the results depend on the processing

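Calls for back-splice reads that rest on unlisted entries counted as 0 describe the listing. Of the 217 members tested, 3 were called (12 of all 772 circRNAs). DESeq2 called 10 of the 217 (27 of all 772) and limma-voom 9 (33 of all 772). TPM called 8 of 153 members with either pseudocount (31 of all 494), and no filter called 12 of 631 (41 of all 2228). The test over circRNAs listed in all 6 libraries called 0 of 56 members in edgeR, against 7 of all 273 circRNAs, and 7 members had an unadjusted p under 0.05. The second caller's counts called 0 of 299 members, against 2 of all 2208, and 19 members had an unadjusted p under 0.05. No count of unadjusted p over all circRNAs is given for either test, so members are not compared with the rest by it. Leaving out 1 rat left 1 to 3 calls (1 to 14 of all 772 circRNAs), down to 1 without C05 or C06. The member chr1:244630341-244664389 was called each time, chr16:3060713-3064512 only without C03 and chr12:628708-632694 only without C04. RLE, library size scaling, a minimum of 5 reads and reads collapsed by flow cell position each gave 3 member calls, where 9, 10, 12 and 11 of all circRNAs tested were called. By the second caller chr17:77176705-77178100 had -0.64 and chr2:144876416-144917472 -0.28, of opposite sign. For the circular share, a minimum of 5 reads called 4 of 46 members (10 of all 234), adding chr18:29633808-29634585 and chr18:69943105-69944476. Leaving out 1 rat called 1 to 2 of the 56 (3 to 5 of all 273), with 1 without C03, C04, C05 or C06. Linear calls ranged from 14 to 21 members (68 to 99 of all circRNAs tested). The members' percent of TPM, a length-divided measure over 1413 circRNAs, was 2.40 points higher in C01 to C03, opposite in sign to their percent of reads. The median share of members listed in all 6 libraries was 0.027 points higher, opposite in sign to that of all listed members. Against hosts with exactly 2 circRNAs, differences were -1.42 reads, -1.19 points and -5505 bases, past no threshold after adjustment over 4 measures. Without 1 rat the differences from other exonic circRNAs were -1.9 to -1.5 reads, -2.16 to -1.60 points and -10387 to -9693 bases, but 5 libraries cannot give an exact permutation p below 0.0625. Causes were not tested. Over 34 results for named members and 401 alternatives, 341 kept direction and side of the threshold, 26 passed newly, 32 no longer passed and 2 reversed. Collapsed reads and the last leave-one-out set were added after the data were seen. No paired analysis was possible because the replicate numbers are not shared between the groups. The 414 members not tested include abundant ones unlisted in most libraries. The p-values between groups set a group difference against the spread among rats within a group. Those for members against other exonic circRNAs rest on differences within libraries and do not measure the spread between rats.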

Other observations

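Reads of 1 circRNA often lay close together on the flow cell, in members as in all circRNAs. Within each library, 31.9% to 37.1% of member back-splice reads lay within 2500 pixels, on the same tile, of another read of the same circRNA, and over all circRNAs 31.9% to 36.6% did. Such near pairs made up 0.636% to 1.09% of all pairs of reads of 1 circRNA and 0.0113% to 0.0116% of pairs from different circRNAs. Counting near reads once kept 18804 of the 23364 member reads (80.5%), and 7 listings then rested on 1 read. In the second caller's lists, 11552 of 17507 reads at the members' ends (66.0%) were distinct. The distance was chosen after the data were seen, and the origin of these reads was not tested.

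Member-library pairs without a listing were not empty in the other lists. Of 2319 such pairs, 660 (28.5%) had second caller reads at the exact ends, against 1073 of the 1467 listings (73.1%). By TPM, members held 34.8% ± 1.63 (SD, n = 6) of the total. TPM is divided by length and covers 1413 circRNAs, 468 of them members, so this is not comparable with their percent of reads.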
